A study of Mus musculus with 16 samples.

Results

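The 44 genes described here encode the machinery that copies DNA in S phase and the regulators that start it. They were a fixed list of names, all 44 were found among the 22238 protein-coding genes of the annotation, and the list names them without a threshold on any measured value. The study mapped 2 transcription factors and 5 histone modifications by ChIP-seq, the sequencing of immunoprecipitated chromatin, in the MC3T3-E1 line of mouse pre-osteoblasts, which lays down mineralised matrix when differentiated. Undifferentiated cells were compared with cells differentiated for 15 days with ascorbic acid at 50 µg/mL plus glycerol-2-phosphate at 10 mM. Per the labels, both were at passages 5 to 12 and both received vehicle (ethanol) over 3 h. The mineralised matrix was removed from the differentiated cultures before their chromatin was prepared. Of the 16 samples, 14 gave a list of merged peaks, 1 for each of 7 antibodies in each state, and the 2 input samples were not analysed here. The input of differentiated cells was labelled as given 1,25-dihydroxyvitamin D3, the state of the differentiated H3K36me3 library comes from its title because its treatment label is garbled, and the protocol writes H3K5Ac where the antibody label has H4K5Ac.

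Each group is therefore 1 list with no visible replicates, so no difference between the states had a replicate check and no p-value was computed. RUNX2 had 12674 peaks before and 6272 after differentiation, C/EBPβ 15622 and 10847, H3K4me3 6920 and 8196 regions, and H3K9Ac 14975 and 23671. Peak lists hold no read counts, so the depth is unknown. Every factor peak has a score of 0, so the factor lists could not be cut to equal length by score, and the part that list length played in the RUNX2 and C/EBPβ differences below was not tested. Of 8 osteoblast lineage genes, 7 carried H3K9Ac at the promoter in both states, and none of the adipocyte, muscle, haematopoietic or endothelial marker genes examined did. Of 4 chondrocyte marker genes, 2 carried it in both states.

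DNA replication starts at origins that are licensed before S phase. The origin recognition complex, CDC6 and CDT1 load the MCM2 to MCM7 ring onto DNA, and CDC45 and the GINS complex join it to form the active helicase. Primase and the polymerases then synthesise DNA on the sliding clamp PCNA, ribonucleotide reductase and thymidylate enzymes supply the nucleotides, and histone chaperones rebuild chromatin behind the fork. Many of these genes are switched on by E2F factors when cells commit to S phase, and osteoblasts leave the cell cycle as they mature. RUNX2 is the runt-domain factor required for osteoblast formation and is known to restrain osteoblast proliferation, and C/EBPβ is a basic leucine zipper factor active in the same lineage.

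Sequences from 6 RUNX2 promoter peaks of helicase genes are shown first, those of Mcm2 to Mcm6 and Gins3. Pcna and Rrm1 are added as lost sites of other roles and Pold1 as a site that was kept. The sequences are examples, most of them with matches to the motifs below. Of the lost sites without a match, that of Mcm2 is shown and others, such as that of Cdc45, are not. Each line is the part of an undifferentiated RUNX2 peak outside annotated exons, read 5′ to 3′ on the strand of the gene from the mm9 genome. Capitals mark 3 kinds of match on either strand. These are the E2F octamers TTTCCCGC, TTTCGCGC, TTTGCCGC and TTTGGCGC, the NF-Y element CCAAT, and the RUNX hexamers TGTGGT and TGCGGT. The printed parts lie at chr6:88848775-88848866 (Mcm2, minus strand), chr1:20810360-20810556 (Mcm3, minus), chr16:15637516-15637716 (Mcm4, minus), chr8:77633270-77633426 (Mcm5, plus), chr1:130256234-130256422 (Mcm6, minus), chr8:98157295-98157458 (Gins3, plus), chr2:132078339-132078515 (Pcna, minus, inside the gene), chr7:109590140-109590208 (Rrm1, plus) and chr7:51804220-51804380 (Pold1, minus).
Mcm2: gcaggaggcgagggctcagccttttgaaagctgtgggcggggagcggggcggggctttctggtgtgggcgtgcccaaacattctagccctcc
Mcm3: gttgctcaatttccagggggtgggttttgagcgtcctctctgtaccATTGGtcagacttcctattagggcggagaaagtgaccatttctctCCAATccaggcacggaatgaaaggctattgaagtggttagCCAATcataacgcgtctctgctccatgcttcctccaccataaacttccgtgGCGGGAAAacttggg
Mcm4: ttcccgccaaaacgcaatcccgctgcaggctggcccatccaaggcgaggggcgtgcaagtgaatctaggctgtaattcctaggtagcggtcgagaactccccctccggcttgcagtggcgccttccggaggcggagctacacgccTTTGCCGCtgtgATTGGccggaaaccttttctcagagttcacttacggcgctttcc
Mcm5: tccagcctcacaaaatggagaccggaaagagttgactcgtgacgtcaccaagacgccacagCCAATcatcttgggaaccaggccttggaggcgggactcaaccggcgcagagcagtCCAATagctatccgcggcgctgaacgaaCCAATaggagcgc
Mcm6: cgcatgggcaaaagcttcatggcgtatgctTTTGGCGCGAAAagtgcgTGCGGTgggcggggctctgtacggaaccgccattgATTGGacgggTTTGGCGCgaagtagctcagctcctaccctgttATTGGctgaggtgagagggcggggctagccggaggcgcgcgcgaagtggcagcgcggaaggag
Gins3: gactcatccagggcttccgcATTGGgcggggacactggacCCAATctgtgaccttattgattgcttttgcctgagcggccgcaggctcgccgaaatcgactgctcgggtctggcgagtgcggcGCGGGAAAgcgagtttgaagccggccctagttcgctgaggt
Pcna: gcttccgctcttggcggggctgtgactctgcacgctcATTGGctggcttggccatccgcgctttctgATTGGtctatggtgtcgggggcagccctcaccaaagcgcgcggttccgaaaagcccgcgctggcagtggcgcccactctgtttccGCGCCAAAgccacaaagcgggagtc
Rrm1: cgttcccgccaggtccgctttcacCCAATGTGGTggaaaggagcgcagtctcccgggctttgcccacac
Pold1: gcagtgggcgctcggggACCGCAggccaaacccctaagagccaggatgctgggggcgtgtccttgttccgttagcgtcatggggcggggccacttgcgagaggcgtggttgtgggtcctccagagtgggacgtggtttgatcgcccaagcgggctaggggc
In Mcm6, an E2F octamer and the reverse complement of another overlap, and in Rrm1 the CCAAT runs into the hexamer. The first 8 peaks were found in undifferentiated cells only, and the Pold1 peak in both states. The counts over all 27 promoter peaks are given with the motifs further on. The kept Pold1 sequence held a RUNX hexamer and no E2F octamer or CCAAT.

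The promoters of the replication genes were acetylated in both states. A promoter was counted as marked when a region reached within 1 kb of any annotated transcription start site (TSS) of the gene. H3K9Ac, H4K5Ac and H3K4me1 were each present at all 44 promoters before and after differentiation. Over all genes the shares were 49.2% and 52.5% for H3K9Ac, 55.5% and 54.3% for H4K5Ac, and 57.1% and 59% for H3K4me1, undifferentiated first. In both states together they were 49.1%, 53.1% and 55.7%. The 10915 genes with H3K9Ac at the promoter in both states, called acetylated genes from here on, are the closer comparison, and among them 98.1% had H4K5Ac and 97.4% had H3K4me1 in both states. The complete cover of the members was therefore near what acetylated genes show in general.

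H3K4me3, the mark of active promoters, was less complete. It was present at 36 of 44 promoters in undifferentiated cells, where all genes had 34.9% and acetylated genes 71%. In differentiated cells it was present at 37, where the shares were 40.1% and 81.5%. It was present in both states at 35 (all genes 33.5%, acetylated genes 68.2%). All 4 promoter marks in both states were found at 35 members, or 79.5%, compared with 67.1% of acetylated genes.

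For H3K4me3, 1 member was marked before differentiation alone and 2 after it alone. Gins2, a subunit of the GINS complex, was the one marked in undifferentiated cells alone (1.45% of all genes). Its region there was 1291 bp wide at chr8:123112163-123113453 and ranked at percentile 0.58 of its list by the authors' score, close to the bottom, while its H3K9Ac measured 2092 bp and 2573 bp in the 2 states. Pold1 and Rfc4 were marked in differentiated cells alone (6.6% of all genes, 13.3% of acetylated genes). Pold1, the catalytic subunit of polymerase delta, had a region of 1328 bp after differentiation at chr7:51803153-51804480, at percentile 13.59 of its list. Within 5 kb of its TSS, H3K4me3 measured 721 bp before differentiation, all of it farther out than 1 kb, and 1877 bp after it. Rfc4, a subunit of the clamp loader that opens PCNA, had 2370 bp at chr16:23126926-23129295 after differentiation and none within 5 kb of its main TSS before it.

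No H3K4me3 region was listed in either state at 6 of the 44 members. Of acetylated genes, 68.2% had the mark in both states, 13.3% in differentiated and 2.84% in undifferentiated cells alone. Of all genes these shares were 33.5%, 6.6% and 1.45%. The remaining genes of each set lacked it in both states, so its absence was not particular to the members. The 6 members were Pola1 and Prim1 of the primase complex, Pole of the leading-strand polymerase, Mcm10 and Gins4 of the helicase, and Asf1b, a histone chaperone. By role, the mark was thinnest on the primase and polymerase genes, with 2 of 6 marked in undifferentiated and 3 of 6 in differentiated cells. All 6 licensing genes (Orc1, Orc2, Orc6, Cdc6, Cdt1 and the licensing inhibitor Gmnn), all of Mcm2 to Mcm7, and all 4 nucleotide supply genes were marked in both states. All 6 members without the mark had H3K9Ac in both states, with widths from 2138 bp (Prim1) to 2934 bp (Pole) in undifferentiated cells and from 2291 bp (Prim1) to 3257 bp (Pole) in differentiated cells.

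**Figure D1:**
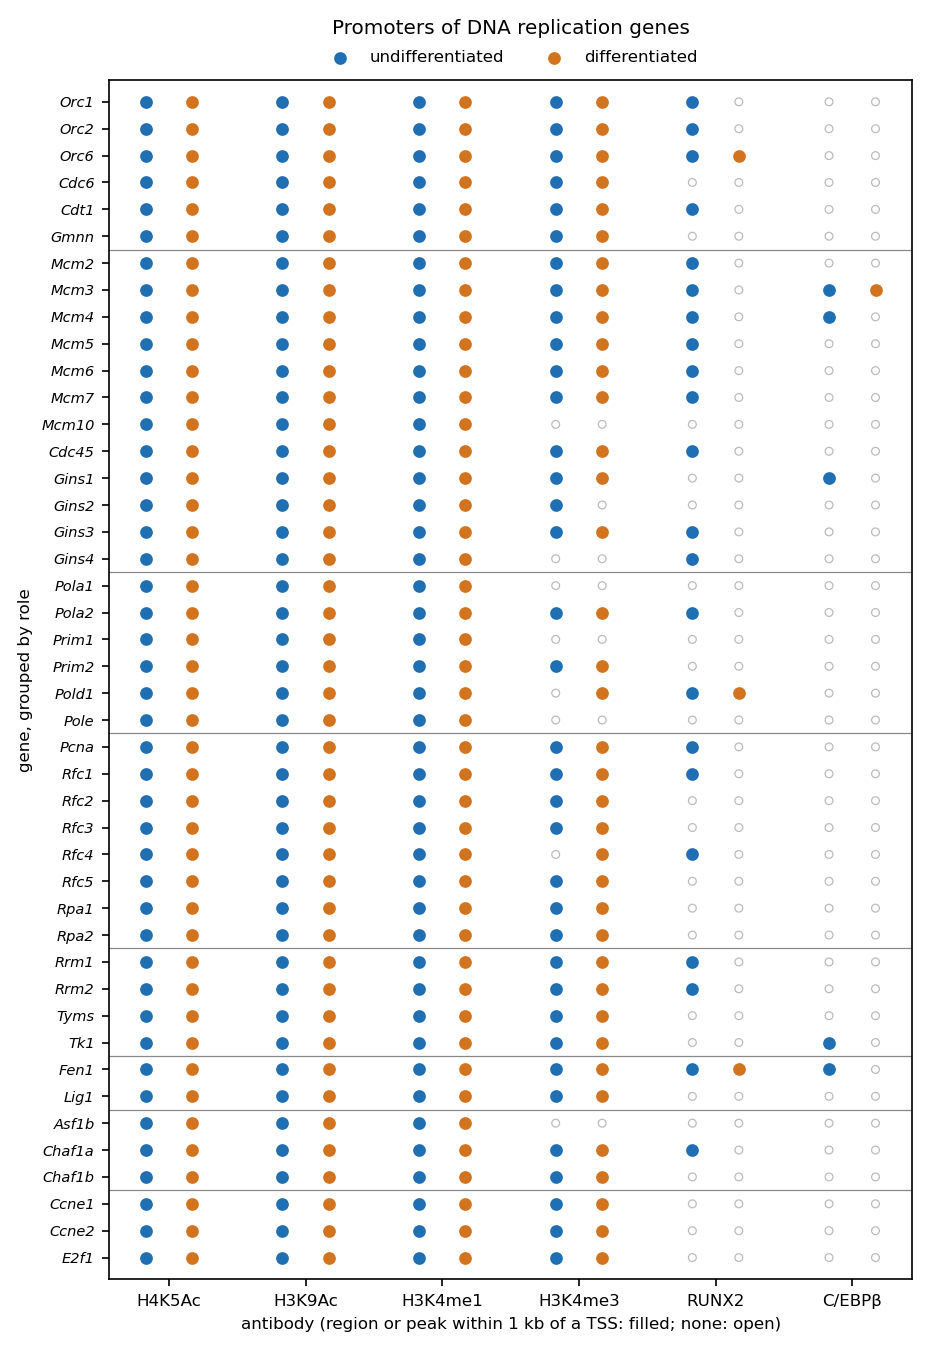
Each row is 1 of the 44 genes, grouped by role with horizontal lines, and each pair of columns is 1 antibody in undifferentiated (blue) and differentiated (orange) cells. Filled circles mark a region or peak within 1 kb of a TSS, and the RUNX2 column holds 22 filled circles before and 3 after differentiation while the acetylation columns are full.

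RUNX2 stood at the promoters of 22 of the 44 genes in undifferentiated cells and at 3 in differentiated cells. The first share is 50% with an exact 95% Clopper-Pearson interval of 34.6 to 65.4, which covers counting error only, and all genes had 15.1% and acetylated genes 29.9%. The second is 6.82% with an interval of 1.43 to 18.7, beside 5.63% of all genes and 10.9% of acetylated genes. The 3 kept promoters were those of Fen1, the flap endonuclease that trims Okazaki fragments, Orc6 and Pold1. RUNX2 was absent after differentiation at the other 19 of the 22, or 86.4% (interval 65.1 to 97.1), compared with 68.8% of all genes and 68.9% of acetylated genes that had such a peak, a value inside that interval. No member had a promoter peak in differentiated cells alone (0.908% of all genes), and 0 of 44 allows a share of up to 6.82% by a limit of 3 counts, with an exact interval that reaches 8.04%.

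**Figure D2:**
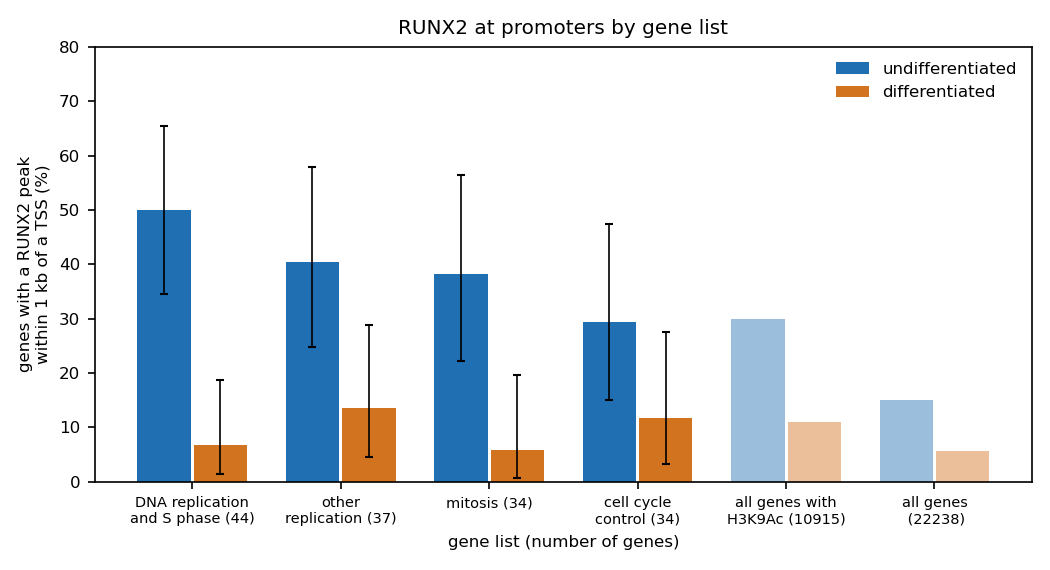
Bars give the percentage of genes with a RUNX2 peak within 1 kb of a TSS in each gene list, undifferentiated in blue and differentiated in orange, with exact 95% intervals for the 4 lists and the 2 comparison sets in pale colours without intervals. The replication genes stand at 50% and 6.82%, and the acetylated genes at 29.9% and 10.9%.

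By role, the groups of genes were small, and differences between them were not tested. Over all genes 15.1% had a RUNX2 promoter peak before and 5.63% after differentiation, and of acetylated genes 29.9% and 10.9%. All 6 genes of the MCM ring, Mcm2 to Mcm7, had a RUNX2 promoter peak in undifferentiated cells and none had one in differentiated cells. The assignment is less certain at Mcm7, which had 2 peaks. One lay by an internal TSS, 1225 bp downstream of the most upstream TSS, and the other lay nearer to the TSS of the neighbour Ap4m1. Adding Cdc45, Gins3 and Gins4 gave 9 of 12 helicase genes before and 0 after, with no peak at Mcm10, Gins1 or Gins2. Among licensing genes the counts were 4 of 6 and 1, from Orc1, Orc2, Orc6 and Cdt1, and Cdt1 had 2 peaks.

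The other roles had smaller shares before differentiation, also in small groups. Pola2, a regulatory subunit of polymerase alpha, and Pold1 made 2 of 6 primase and polymerase genes, with 1 left after differentiation. Pcna, Rfc1 (the large clamp loader subunit) and Rfc4 made 3 of 8 in the group of the clamp, its loader and the single-strand binding protein RPA, with none left. Rrm1 and Rrm2, the 2 subunits of ribonucleotide reductase, made 2 of 4 nucleotide supply genes, and Tyms and Tk1 had no RUNX2 promoter peak in either state. Fen1 had a peak in both states and its partner ligase Lig1 had none. Chaf1a, the large subunit of chromatin assembly factor 1, was 1 of 3 chromatin assembly genes, and the S-phase entry genes Ccne1, Ccne2 and E2f1 had no promoter peak in either state.

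The 22 promoters held 27 RUNX2 peaks, of which 24 were lost and 3 kept, a peak being kept when it overlapped a differentiated peak by at least 1 bp. Of all 3343 promoter peaks in undifferentiated cells 71.5% were lost, and of 9331 peaks elsewhere 60.7%. The centres lay a median of 89 bp from the nearest TSS of the gene (range 8 to 613 bp), 21 of 27 were within 200 bp and 21 were upstream. Mcm2 had its centre 8 bp and Pola2 24 bp from the TSS, and the more distant of the Rrm2 peaks was 613 bp upstream. One of the Rfc4 peaks, at chr16:23114946-23115146, lay by an internal TSS with neither H3K4me3 nor H3K9Ac in either state.

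**Figure D3:**
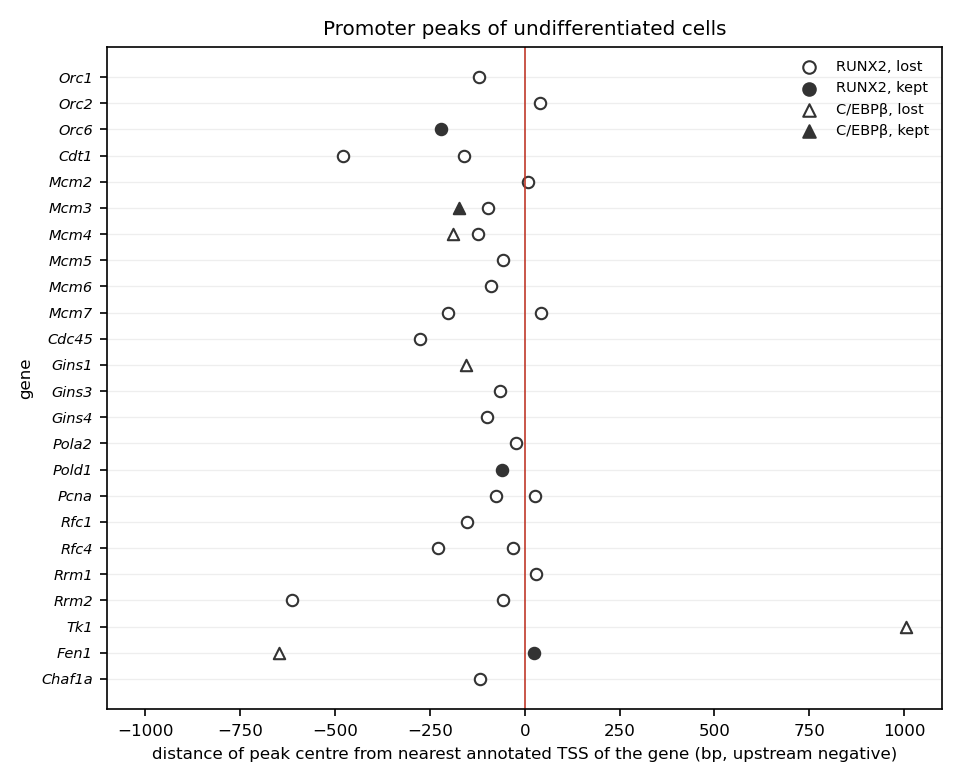
The horizontal axis is the distance in bp of the centre of each undifferentiated promoter peak from the nearest annotated TSS of the gene (upstream negative), with RUNX2 as circles, C/EBPβ as triangles, and filled symbols for peaks kept after differentiation. The 3 filled circles are Orc6, Pold1 and Fen1, and 21 of the 27 circles lie within 200 bp of the TSS.

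The chromatin under the lost peaks was still marked after differentiation. Of the 24 lost promoter peaks, 21 lay in an H3K4me3 region before and 22 after, 23 in an H3K9Ac region in each state, and 24 in H4K5Ac and in H3K4me1 in each state. Of all 2390 lost promoter peaks, 72.6% lay in H3K4me3 before and 80.6% after, 94.8% and 97.2% in H3K9Ac, 99.1% and 98.2% in H4K5Ac, and 93.6% and 97.3% in H3K4me1. Marked chromatin was thus common under lost promoter peaks in general. Only the peaks of Mcm3 and Mcm4 overlapped a C/EBPβ peak. In undifferentiated cells the 22 members with a promoter peak had a median H3K9Ac width of 4119.5 bp (range 1503 to 7071), and the 21 without one that had the mark in the window (all but Lig1) a median of 2934 bp (2092 to 8653). Of the members with an H3K4me3 region, 19 with a RUNX2 promoter peak ranked at a median percentile of 56.8 in the list (3.97 to 94.86), and 17 without one at 34.0 (0.58 to 78.89). The ranges overlapped widely.

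Several promoters are shared, which limits the assignment of peaks. A divergent gene started within 1 kb of 13 members (29.5%, against 10.7% of all genes), and the RUNX2 peaks of Cdc45, Orc1, Orc6 and 1 of the 2 at Mcm7 lay nearer to the TSS of the neighbour (Ufd1l, Prpf38a, Vps35 and Ap4m1). Fen1 shares its promoter with 1810006K21Rik, so of the 3 kept promoters only Pold1 has no divergent neighbour. With the 13 members that have such a neighbour left out, the counts were 16 and 1. These come from fewer genes than the counts over all 44 members.

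Counting each peak once for the nearest TSS within 100 kb gave 34 RUNX2 peaks at 22 members before differentiation and 8 peaks at 6 members after. The share before was 50%, compared with 27.3% of all genes and 43.8% of acetylated genes, and the share after was 13.6%, compared with 15% and 23.6%. Fewer peaks were counted at 17 members (19.8% of all genes, 32.1% of acetylated genes) and more at none (2.92% and 4.03%). Of the 34 peaks, 26 were lost and 8 kept, and none was gained. The kept peaks away from promoters were 2 with centres beyond the end of Fen1, 5133 bp and 8688 bp downstream of its most upstream TSS, and 1 each at Mcm3, Orc6, Rfc3 and Tk1. At Mcm3 the kept peak (chr1:20838712-20838912) lay 28453 bp upstream and overlapped C/EBPβ, while the peaks 97 bp and 1813 bp upstream were lost. Orc6 had one 30111 bp downstream (chr8:87853542-87853742), Rfc3 one 35874 bp upstream (chr5:152489591-152489791), and Tk1, thymidine kinase, one inside the gene, 2907 bp downstream of its most upstream TSS. Lost peaks away from promoters were at Mcm3, Rfc4 and Rrm2, and 2 inside Pola2.

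C/EBPβ was rarer at these promoters. Its peaks stood at 5 of 44 in undifferentiated cells, a share of 11.4% (interval 3.79 to 24.6), compared with 10.7% of all genes and 20.4% of acetylated genes. The 5 were Mcm3, Mcm4, Fen1, Gins1 and Tk1. In differentiated cells Mcm3 alone had one (6.55% of all genes, 12.4% of acetylated genes), 160 bp upstream of its TSS, where the undifferentiated peak was 172 bp upstream. At Mcm3 the C/EBPβ peak was thus kept at a promoter where RUNX2 was lost, and at Mcm4 both were lost. The Gins1 and Tk1 peaks lay by internal TSSs, and that of Fen1, 648 bp upstream, was nearer to 1810006K21Rik.

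By nearest TSS, C/EBPβ had 14 peaks at 10 members before and 9 at 6 members after differentiation. The share before was 22.7%, compared with 27.7% of all genes and 41.6% of acetylated genes, and the share after was 13.6%, compared with 21.8% and 33.2%. Fewer were counted at 7 members (16.1% of all genes, 23.8% of acetylated genes) and more at 2 (6.15% and 8.8%). The gained peaks were 24021 bp upstream of Chaf1b (chr16:93860025-93860225) and 9055 bp upstream of Rfc4 (chr16:23136765-23136965). Mcm3 had the most, 4 before and 3 after. Of the 14, 7 were kept and 7 lost, with losses also at Gmnn, Orc6 and Pola2.

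Over both factors, 17 of the 44 genes had no peak at the promoter or by nearest TSS in either state, or 38.6%, compared with 56.9% of all genes and 34.2% of acetylated genes. They include Cdc6, which loads the MCM ring, Mcm10, Pola1, Prim1, Prim2, Pole, Lig1, Tyms and the 3 S-phase entry genes.

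Promoter sequence was searched from 250 bp before to 50 bp after the TSS used by most transcripts. An E2F octamer was present at 13 of 44 members, or 29.5%, compared with 2.8% of all genes and 4.5% of acetylated genes. They were Mcm3 to Mcm6, Gins3, Orc1, Cdc6, Cdt1, Gmnn, Pola1, Pole, Rfc3 and E2f1. CCAAT was present at 29 members (65.9%), with 37.8% over all genes and 38.3% over acetylated genes. A RUNX hexamer was present at 13 members (29.5%), compared with 21.5% and 20.1%. Median GC content was 60% for the members, 55.3% for all genes and 61% for acetylated genes. A match shows only that these letters occur in the window.

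Within the RUNX2 peaks, the hexamer was found in all 3 kept promoter peaks and in 7 of 24 lost ones (29.2%), compared with 60.1% of all kept and 36.7% of all lost promoter peaks in undifferentiated cells. It was found in 9 of the 11 other peaks of the members and in 68.3% of all peaks away from promoters. CCAAT was in 16 of 24 lost peaks and an E2F octamer in 8, and neither was in the 3 kept peaks. Over all promoter peaks these shares were 32.3% and 3.38%. Split by fate, CCAAT was in 33.9% of all lost and 28.2% of all kept promoter peaks. The E2F octamer was in 3.35% and 3.46% of them, so over all genes its share was similar in lost and kept peaks. The same motifs were about as frequent at members without RUNX2, with an E2F octamer in the promoter of 7 of 22 members with a RUNX2 promoter peak and 6 of 22 without, and CCAAT in 15 and 14.

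The extent of each mark around the TSS differed between the states, in the direction most frequent over all genes. Within 5 kb of the main TSS, H3K9Ac was wider after differentiation at 40 of 43 members with the mark in both states (85.8% of all such genes), and narrower at Cdc45, Pold1 and Rfc3. Its median width over the members was 3319 bp before and 4098 bp after, with 3192 bp and 3668 bp over all genes. H4K5Ac was narrower at 40 of 43, or 93% (interval 80.9 to 98.5), compared with 74.8% of all genes and 77.6% of acetylated genes, with medians of 5980 bp and 4136 bp. H3K4me1 was narrower at 31 of 43, or 72.1% (interval 56.3 to 84.7), compared with 54.3% and 55.1%. Whether these shares differ was not tested. The whole H4K5Ac list held 41592 regions over 339.8 Mb before and 33439 over 264.7 Mb after differentiation. The part this played was not tested, and H4K5Ac and H3K4me1 widths were not recomputed under other settings. For Lig1 the window sat on an internal TSS and held no region.

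H3K4me3 was narrower after differentiation at 23 of 35 members (59.9% of all genes) and wider at 12 (40%), with medians of 3065 bp and 2396 bp over the members and 2888 bp and 2480 bp over all genes. The widest were Tk1, at 8713 bp before and 2284 bp after, and Rpa1, a subunit of RPA, at 8497 bp and 2537 bp. Prim2, a primase subunit, measured 5727 bp and 1785 bp, and E2f1, the activator of S-phase genes, 5055 bp and 2265 bp. These 4 were picked after the values were seen, as the members with the largest falls in width. Orc6 (5429 bp and 3759 bp), Chaf1a (5231 bp and 3687 bp) and Pola2 (5065 bp and 2657 bp) were wider than E2f1 before differentiation. Tk1, Rpa1 and Prim2 share the window with a divergent gene. Orc2 measured 2328 bp and 3352 bp and was among the wider ones.

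**Figure D4:**
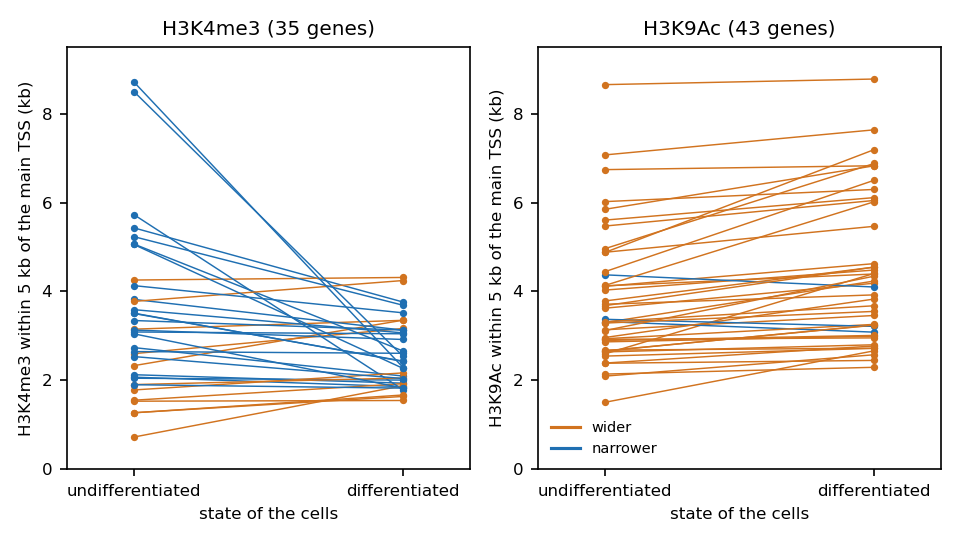
Lines join the base pairs (in kb) of H3K4me3, left, and H3K9Ac, right, within 5 kb of the main TSS of each member in the 2 states, orange where wider after differentiation and blue where narrower. H3K4me3 is narrower at 23 of 35 genes and H3K9Ac is wider at 40 of 43.

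The gene bodies carried H3K36me3 in both states, the mark laid down behind elongating RNA polymerase. Cover of the annotated gene span had a median of 94.9% over the members in undifferentiated and 93.8% in differentiated cells, compared with 86.2% and 86.4% over acetylated genes. The medians were 96.1% and 95.7% for other replication genes, 96.4% and 95.8% for mitosis genes, and 88.8% and 82.9% for cell cycle control genes. The median span was 15361 bp for the members and 23483 bp for acetylated genes, and the part of gene length was not tested. At least 50% of the span was covered at 42 of 44 members before (40.7% of all genes, 77.5% of acetylated genes) and at 41 after (40.8% and 77.8%). Mcm6, Mcm7, Cdc6 and Fen1 were covered over 100% in both states, and the spans of Mcm7 and Fen1 overlap other protein-coding genes. Such an overlap was present at 13 of 44 members, and without these the medians were 94.75% before and 92.66% after differentiation. The 2 members below 50% before differentiation were the long genes Pola1, at 49.5% before and 31.9% after, and Prim2, at 49.8% and 41.0%.

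Asf1b was the 1 member whose cover was lower by at least 25 percentage points after differentiation (1.67% of all genes, 2.61% of acetylated genes), and none was higher by as much (1.69%). Asf1b encodes a chaperone that hands histones H3 and H4 to chromatin assembly factor 1 during replication. It was 85.7% covered in undifferentiated cells, by a region of 14402 bp at chr8:86481508-86495909, and uncovered in differentiated cells. Its H3K9Ac promoter region was present in both states, at 2657 bp and 3244 bp, and it had no H3K4me3 and no factor peak in either. The other subunit genes of this pathway were nearer to their earlier cover, Chaf1a at 96.6% and 95.9% and Chaf1b at 96.7% and 84.6%. In all, 40 members were within 10 points of their earlier cover.

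Within each list, the best-scoring H3K36me3 region of a member was also ranked by the authors' score. In undifferentiated cells the median percentile was 84.3 over 44 members, and 30 of them were above the median of acetylated genes, 78.0. In differentiated cells it was 75.9 over 43 members, and 20 were above the acetylated genes' 77.4. These ranks come from lists of different length and were not compared between the states.

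**Figure D5:**
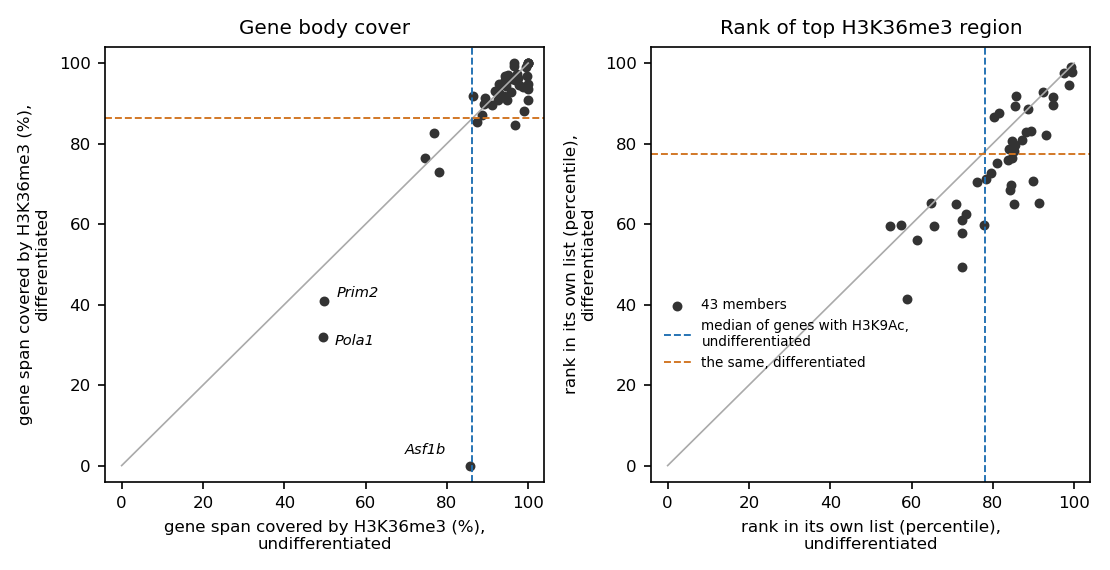
The left panel plots the percentage of each gene span covered by H3K36me3 in differentiated against undifferentiated cells, and the right panel the percentile of the best-scoring region within its own list, with dashed lines at the medians of acetylated genes and a grey line of equality. Most genes cluster near full cover, Pola1 and Prim2 lie below 50%, and Asf1b lies at 85.7% and 0%.

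The same counts were made for 3 other lists of cell cycle genes. RUNX2 promoter peaks were found at 15 of 37 other replication genes before and 5 after differentiation, at 13 of 34 mitosis genes and 2, and at 10 of 34 cell cycle control genes and 4. Of the promoters with a peak, RUNX2 was absent after differentiation at 10 of 15, 11 of 13 and 6 of 10. C/EBPβ promoter counts were 8 and 3, 8 and 3, and 10 and 4. The intervals of these shares overlapped those of the 44 genes, and no difference between the lists was tested.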

How the data were processed

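Bowtie, HOMER and the mm9 build are named in the submitters' processing notes, with versions not given in the sources used here. The deposited lists hold merged peaks of biological replicates, per the labels, and their score is the authors' own value. All factor peaks have a score of 0, so the score served only to rank mark regions within a list. Factor peaks were 201 bp wide, and 1 of them, clipped at the start of its sequence, was 103 bp. Genes were the protein-coding genes of GENCODE vM1 on NCBIM37 (mm9), with the transcription start sites of a symbol pooled. Positions are 1-based.

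The members and lists were chosen with earlier results of these data known. The motif count inside RUNX2 peaks was added after the data were seen. Values are given for members with a factor peak, a promoter mark in 1 state alone, or H3K36me3 cover changed by at least 25 points. The H3K4me3 regions named for their widths, Asf1b's partners and members with full cover were named after their values were seen. Overlap, nearest-site, promoter and cover steps were tested on simulated data (Python 3.11.15, pandas 2.3.3). The alternatives varied promoter width, assignment of peaks, overlap, list length and windows. The values of 1 gene of the other lists are not reported here, though the counts include it.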

Additional observations from a re-analysis of the deposited data

How the results depend on the processing

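Of 168 values recomputed for 43 results, 139 stayed within 1.5 times the reported count, or, for a median, within its order-statistic interval over the members, and 23 results did so under every alternative run. The counts of 22 promoters with RUNX2 before differentiation, 26 lost peaks and 40 members with wider H3K9Ac were among these 23. With only the regions scoring above the median of each list, H3K4me3 stood at 17 promoters before and 18 after differentiation, with 5 in undifferentiated and 6 in differentiated cells alone. In the same setting 8 members had H3K9Ac in differentiated cells alone, 5 had H4K5Ac in undifferentiated cells alone, H3K4me1 was in 1 state alone at 4 and 3 members, and H3K36me3 cover was lower by 25 points at 4. H3K4me3 in differentiated cells alone was found at 0 members within 5 kb and at 1 with lists of equal length. After differentiation, RUNX2 stood within 5 kb of the TSS at 5 members. It stood at 1 promoter when the 13 of 44 members with a divergent neighbour were left out. By nearest TSS after differentiation it had 5 peaks at 3 members within 20 kb and 3 peaks at 3 members when every annotated gene competed. C/EBPβ then had 9 peaks before and 5 after. Its promoter count before differentiation was 3 within 500 bp, with the main TSS or with the most upstream TSS, and 1 without divergent neighbours. Its count after differentiation was 2 within 5 kb. Without the first 1 kb of the gene, median H3K36me3 cover was 100% and 99.75%. With a change of 10 points, cover was lower at 4 members. With a window from 500 bp before to 100 bp after the TSS, an E2F octamer was present at 20 members and a RUNX hexamer at 23. The settings with 1 TSS per gene and without divergent neighbours were added after the data were seen. No paired analysis was possible because each antibody and state is 1 merged list and the labels give no replicate numbers. Read depth is unknown, so a promoter without a peak may lie below detection.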

Other observations

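Several of the other cell cycle genes had H3K36me3 cover that differed by at least 25 percentage points between the states. Ccnb1, cyclin B1 of the mitotic kinase, was covered over 94.1% of its span in undifferentiated cells and 0% in differentiated cells. Cover was higher after differentiation at Pold4, a small subunit of polymerase delta, with 0% and 64.9%, at Ube2c, the ubiquitin-conjugating enzyme of the anaphase-promoting complex, with 58.1% and 86.7%, and at Lin37 of the DREAM complex, with 62.3% and 100%. CCAAT was present in the promoter window of 82.4% of the mitosis genes, and an E2F octamer in 2.94%. For the replication genes described above these shares were 65.9% and 29.5%. Among the other replication genes they were 51.4% and 27%, and among the cell cycle control genes 29.4% and 29.4%. The octamer was thus about as frequent in these last lists as in the replication genes described above.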
